A study of Homo sapiens with 12 samples.

Results

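N3ICD peaks at gene ends are the sites where chromatin pulled down by a Notch3 antibody was called as a peak with its summit, the highest point, within 1 kb of either end of a protein-coding gene. Of 8106 peaks of the 3 N3ICD libraries on chromosomes 1 to 22 and X, 1737 met this rule. The members numbered 231 of 2222 peaks in N3ICD A, 622 of 2489 in N3ICD B and 884 of 3395 in N3ICD C. All 6 antibody libraries of the study together held 12551 peaks on these chromosomes. The cells were neural crest differentiated from the H9 line of human embryonic stem cells, which is long established, and were fixed 6 days after they received a lentivirus. One group received N3ICD-GFP, the intracellular domain of Notch3 with green fluorescent protein, and its cells are labelled mural, the class of pericytes and vascular smooth muscle. The other received GFP alone and is labelled neural crest. Each group had 3 libraries, named by the letters A to C. The series text speaks of 3 independent differentiations without saying that a letter marks the same one in both groups. All cells came from the one line, N3ICD was supplied by a virus, and the same Notch3 antibody was used in both groups. No expression was measured in these files, so the labelled cell types could not be checked against markers. The 6 input libraries were not analysed here.

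Notch3 is a cell surface receptor. When a ligand on a neighbouring cell binds it, the intracellular domain is cut free, moves to the nucleus and joins the DNA-binding protein RBPJ and a Mastermind coactivator on DNA. The best known targets are the HES and HEY genes, which encode repressors, and in the vessel wall Notch3 is known for its role in mural cells. The start end of a gene holds its promoter, where transcription begins, and the finish end is where the transcribed span stops.

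The promoters below are those of 4 HES and HEY genes and of 2 genes with a member in all 3 N3ICD libraries, FOXK2 and RPS6KB1. They are shown for the core letters of the RBPJ site near these starts. Each is 300 bases long, 5′ to 3′ on the strand of the gene, from 250 bases before the start to 49 after it, with sequences from RefSeq on GRCh38.p14. Capitals mark the RBPJ core, TGGGAA or its reverse complement.
HEY2 (chr6:125749382-125749681, plus strand): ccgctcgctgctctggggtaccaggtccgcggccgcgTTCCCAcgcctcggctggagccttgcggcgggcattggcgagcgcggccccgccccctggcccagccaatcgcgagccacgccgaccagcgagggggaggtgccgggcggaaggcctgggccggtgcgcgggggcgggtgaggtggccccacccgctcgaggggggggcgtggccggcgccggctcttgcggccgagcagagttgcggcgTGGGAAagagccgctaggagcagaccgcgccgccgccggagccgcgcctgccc
HES4 (chr1:1000048-1000347, minus strand): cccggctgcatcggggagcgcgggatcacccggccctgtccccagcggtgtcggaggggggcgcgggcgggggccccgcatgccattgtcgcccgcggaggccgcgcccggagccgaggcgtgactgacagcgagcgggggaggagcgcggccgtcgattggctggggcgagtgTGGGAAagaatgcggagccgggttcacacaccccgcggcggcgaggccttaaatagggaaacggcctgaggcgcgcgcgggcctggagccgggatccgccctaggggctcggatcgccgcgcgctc
HEYL (chr1:39639594-39639893, minus strand): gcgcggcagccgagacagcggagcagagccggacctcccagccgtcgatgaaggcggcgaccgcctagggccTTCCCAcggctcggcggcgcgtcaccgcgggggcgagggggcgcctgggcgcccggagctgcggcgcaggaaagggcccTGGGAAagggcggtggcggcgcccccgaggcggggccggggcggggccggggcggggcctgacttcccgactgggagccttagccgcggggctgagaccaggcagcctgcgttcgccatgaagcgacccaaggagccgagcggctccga
HES1 (chr3:194135898-194136197, plus strand): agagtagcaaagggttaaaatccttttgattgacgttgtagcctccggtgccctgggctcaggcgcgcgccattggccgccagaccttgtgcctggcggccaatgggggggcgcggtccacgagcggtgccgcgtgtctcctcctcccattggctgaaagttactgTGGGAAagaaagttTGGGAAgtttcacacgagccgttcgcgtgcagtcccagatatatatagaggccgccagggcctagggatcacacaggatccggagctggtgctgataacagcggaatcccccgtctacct
FOXK2 (chr17:82519482-82519781, plus strand): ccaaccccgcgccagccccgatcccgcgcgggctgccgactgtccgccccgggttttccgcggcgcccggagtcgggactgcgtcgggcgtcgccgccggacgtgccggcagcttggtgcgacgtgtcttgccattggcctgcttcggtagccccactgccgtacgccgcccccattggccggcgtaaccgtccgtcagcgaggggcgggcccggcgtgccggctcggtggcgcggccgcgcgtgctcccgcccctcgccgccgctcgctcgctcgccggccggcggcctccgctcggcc
RPS6KB1 (chr17:59892871-59893170, plus strand): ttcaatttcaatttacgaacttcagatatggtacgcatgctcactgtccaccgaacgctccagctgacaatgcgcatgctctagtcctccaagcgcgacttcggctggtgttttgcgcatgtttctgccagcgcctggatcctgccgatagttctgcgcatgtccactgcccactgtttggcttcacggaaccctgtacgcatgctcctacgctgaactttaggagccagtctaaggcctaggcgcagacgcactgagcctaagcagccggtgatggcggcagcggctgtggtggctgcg
HEY2, HEYL and HES1 held 2 copies of the core each, and HES4 held 1. FOXK2 and RPS6KB1 held none in this window. The summits of all 3 HEY2 members, both HES4 members, the HEYL member and the FOXK2 member of N3ICD C fell inside the windows, while no summit at HES1 or RPS6KB1 did. A match is a description of letters and not of binding.

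Members lay at the starts of genes and seldom at their finishes. The strand of 15812 of 19970 protein-coding genes was known, and a member was called one-sided when the gene ends within 1 kb of its summit were all starts or all finishes. Of the 1737 members, 1304 were at starts only and 69 at finishes only. A further 37 had both kinds of end nearby, and 327 had an end of a gene of unknown strand, 67 of them on chromosome 8, where no gene had one. N3ICD A, B and C held 173, 474 and 657 start-only members, and finish-only members numbered 17, 19 and 33. In every N3ICD library, therefore, at least 9 in 10 one-sided members were at a start. The start share was 91.1% (95% Wilson interval 86.1% to 94.3%) in A, 96.1% (94.1% to 97.5%) in B and 95.2% (93.4% to 96.6%) in C, a mean of 94.1% ± 2.71 (SD, n = 3). Of the bases that lie within 1 kb of ends of one kind, 49.5% are near starts. All 3 libraries were above this value (two-sided exact sign-flip permutation p = 0.25, the smallest that 3 libraries can give).

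**Figure D1:**
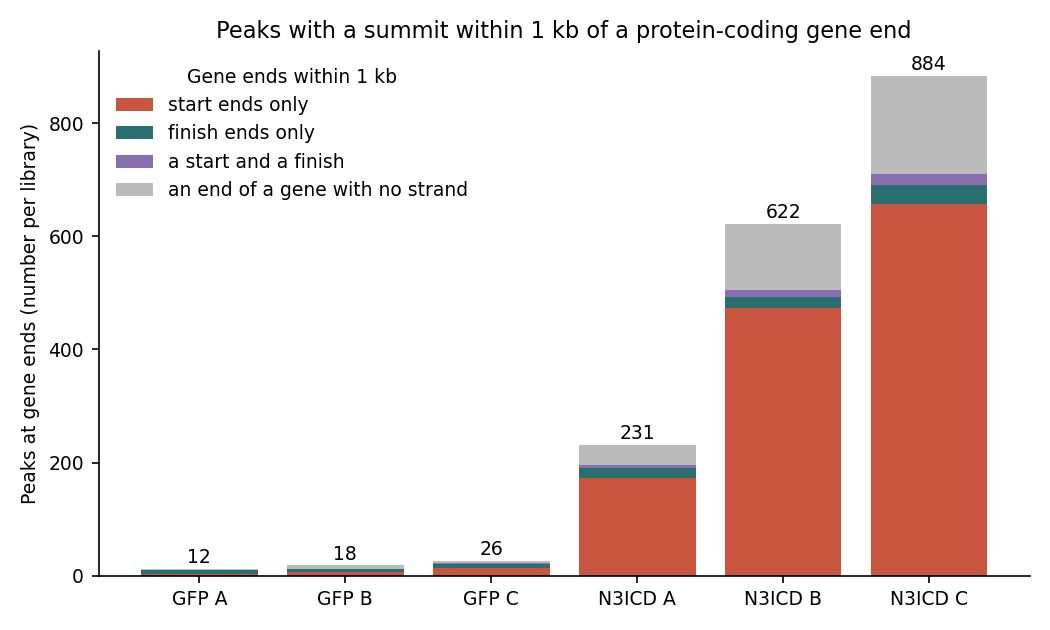
Number of peaks at gene ends (vertical axis) in each of the 6 libraries, split by the kind of gene end within 1 kb of the summit. Start ends make up most of the 231, 622 and 884 peaks of the N3ICD libraries, against 12, 18 and 26 peaks in all in the GFP libraries.

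In the GFP libraries the same count was small and even between the ends. GFP A, B and C had 12, 18 and 26 peaks at gene ends, a mean of 18.7 ± 7.02, against 579 ± 329 in the N3ICD libraries (SD, n = 3 each). The groups did not overlap, and the two-sided exact permutation p was 0.1, as small as this design allows. Of the peaks on chromosomes 1 to 22 and X, 0.995%, 1.17% and 1.52% were at gene ends in GFP A, B and C. In N3ICD A, B and C the shares were 10.4%, 24.99% and 26.04%. The means were 1.23% ± 0.268 and 20.5% ± 8.74 (SD, n = 3 each; two-sided exact permutation p = 0.1). No chance level was computed from the 72549597 bases within 1 kb of an end. The difference of 560 peaks became 310 when each library was given equal numbers of peaks, and 150 among peaks with a −log10 q of at least 1.3. Start-only peaks numbered 3, 7 and 13 in GFP A, B and C, and finish-only peaks 7, 5 and 8. The start share was 30.0%, 58.3% and 61.9%, a mean of 50.1% ± 17.5 (SD, n = 3), beside the 49.5% of bases. All 3 N3ICD shares exceeded all 3 GFP shares (difference 44.1 percentage points, two-sided exact permutation p = 0.1, again the smallest possible). In numbers of peaks, the N3ICD mean was 56.7 times the GFP mean at starts, with 435 ± 244 against 7.67 ± 5.03 peaks, and 3.45 times at finishes, with 23 ± 8.72 against 6.67 ± 1.53 (SD, n = 3 each; exact permutation p = 0.1 for each).

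Summits at starts gathered on both sides of the first base, with more of them inside the gene. Among start-only members, 97 of 173 in N3ICD A, 319 of 474 in B and 377 of 657 in C had the summit downstream of the nearest start. The median distance to the start was 210, 266.5 and 245 bp, and 56.1%, 47.5% and 50.5% of summits lay within 250 bp of it. The fullest 100 bp bin was the first one downstream of the start in A, with 31 peaks, and the second in B and C, with 87 and 110 peaks. Around finishes no such crest appeared. The fullest bin within 2 kb of a finish held 4, 7 and 6 peaks in A, B and C.

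**Figure D2:**
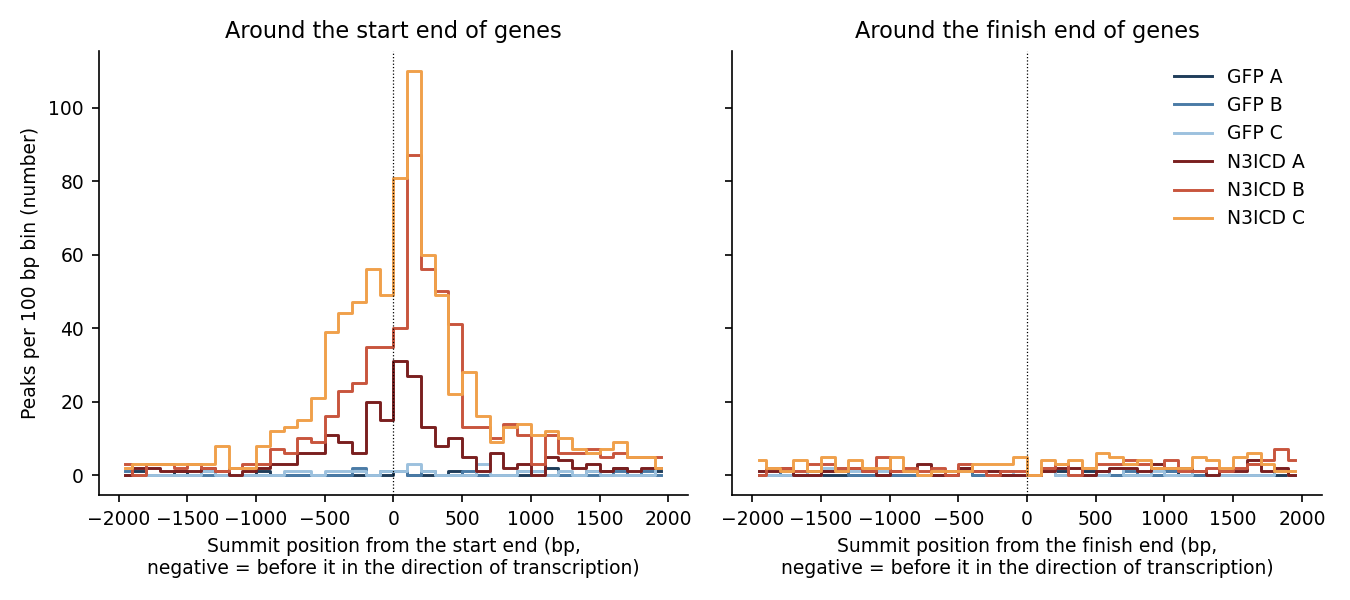
Number of peaks per 100 bp bin (vertical axis) by summit position within 2 kb of the nearest gene start (left) and gene finish (right), 1 line per library. The N3ICD lines peak at 31, 87 and 110 peaks just inside the start, while around the finish no N3ICD bin holds more than 7.

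The few finish-only members were seldom near a start of another kind. Beside the start ends of protein-coding spans, the RefSeq promoter table gives alternative starts and starts of non-coding genes. Of the 69 finish-only members, 0 of 17 in N3ICD A, 0 of 19 in B and 2 of 33 in C had such a start within 1 kb. Of the finish-only bases of the genome, 1.24% do. N3ICD peaks that were not at gene ends had such a start within 1 kb in 51 of 1991 cases in A, 121 of 1867 in B and 185 of 2511 in C, or 2.56%, 6.48% and 7.37%. In the GFP libraries these shares were 0.251%, 0.264% and 0.357% of 1194, 1514 and 1681 peaks.

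Of 105 genes with a finish-side peak in an N3ICD library, 11 had one in 2 or more. At starts it was 149 of 1440 genes, so by gene the shares that recurred were much alike. This count does not require the peaks to overlap. In A, B and C, 2 of 17, 2 of 19 and 3 of 33 finish-only members overlapped a peak of another N3ICD library. For start-only members it was 34 of 173, 75 of 474 and 81 of 657, a larger share in each library. The 11 genes with finish-side peaks in 2 or more libraries were named after their values were seen. They were ADIRF, ATP6V0C, CCDC97, H2AC17, IER2, IQSEC2, LOC124904106, MIDN, NR2F2, SOX1 and USHBP1. H2AC17 is shorter than the window, so a peak can be near its start and its finish at once. The peaks counted for ATP6V0C in B and C were nearest to the start of another gene, AMDHD2, 41 and 32 bp upstream of it. MIDN had the highest pileup of all members in N3ICD B and C. It encodes midnolin, which carries nuclear proteins to the proteasome. Its peaks (hg38, chromosome 19, 1258883 to 1259545 in C) had summits 145, 141 and 148 bp past the finish in A, B and C. The summit pileup, the number of stacked fragments, was 19, 27 and 53, and the authors' fold over local background was 6.42, 7.01 and 25.8. The summits of the 3 libraries thus lay at nearly the same base, and the peak was tallest in C. CCDC97, a coiled-coil protein gene, had overlapping finish-side peaks in A (chromosome 19, 41323739 to 41324508, fold 11.0) and C (41323717 to 41324097, fold 12.9). These summits lay 999 and 980 bp before the finish, at the edge of the rule. CCDC97 also had 2 lesser peaks in C, one 342 bp inside its start (fold 5.73) and one 371 bp past its finish (fold 5.96).

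The other members of highest pileup over background were at a varied set of genes. IPO13, an importin gene, had 18 stacked fragments and a fold of 6.95 in N3ICD B (chromosome 1, 43946703 to 43946988), 82 bp upstream of its start. OBP2B, an odorant-binding protein gene, had 18 fragments and a fold of 9.66 in N3ICD C (chromosome 9, 133223317 to 133223816), 179 bp upstream of its start. EEF1A1, which encodes translation elongation factor 1 alpha, had 26 fragments in B but a fold of only 2.93 there. Its gene has many near-identical copies in the genome, so the assignment is uncertain. OR2T1, an olfactory receptor gene, had the highest pileup in N3ICD A, 26 fragments with a fold of 2.15, and also the highest in GFP A, 23 fragments with a fold of 2.92. Its peaks in the 2 groups lay 770 and 551 bp past the finish. At the other GFP leaders, TTC5 in GFP B and ZNF732 in GFP C, the pileup was 10 and 15 fragments and the fold 4.93 and 5.48, and no N3ICD library had a peak within 1 kb of an end of either gene.

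Members stood a little higher and were a little wider than the other N3ICD peaks of the same library. Members of N3ICD A, B and C had a median fold of 3.72, 3.87 and 4.15, against 3.53, 3.48 and 3.64 for other peaks, a mean difference of 0.365 ± 0.165 (SD, n = 3; exact sign-flip permutation p = 0.25, the smallest possible). A fold of at least 5 was reached by 18, 56 and 133 members, or 7.79%, 9.003% and 15.05%, against 1.96%, 3.16% and 5.89% of other peaks. The median pileup was 8, 9 and 7 fragments at gene ends and 8, 9 and 6 elsewhere, so that medians were equal in A and B. Divided by the genome-wide background of each library, which was 1.27, 1.58 and 0.926 fragments, the median pileup of members exceeded that of other peaks by 0.360 ± 0.623 (SD, n = 3; exact sign-flip permutation p = 1), a difference within the spread between libraries. N3ICD C, with the most members, had the lowest background. Whether depth has a part in the differences between libraries was not tested.

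Width and significance went the same way in all 3 N3ICD libraries. The median width was 286, 285.5 and 307 bp at gene ends and 266, 263 and 280 bp elsewhere, a mean difference of 23.2 ± 3.55 bp (SD, n = 3; exact sign-flip permutation p = 0.25, the smallest possible). Members were 213 to 770 bp wide in A, 212 to 980 bp in B and 222 to 1122 bp in C. A −log10 q of at least 1.3, the authors' adjusted significance of a peak, was reached by 28, 133 and 296 members, or 12.1%, 21.4% and 33.5%, against 5.93%, 11.7% and 15.2% of other peaks. The mean difference was 11.4 ± 6.22 percentage points (SD, n = 3; exact sign-flip permutation p = 0.25, the smallest possible). Most members were weak, with a median −log10 q of 0.517, 0.826 and 0.828, and 4, 3 and 13 members reached 5. Among the GFP gene-end peaks 0, 0 and 7 reached 1.3, which is 26.9% in GFP C against 7.44% of its other peaks. In the GFP libraries gene-end peaks were narrower than the others by 29.5 and 1 bp in A and B and wider by 39 bp in C. The width difference did not separate the groups (exact permutation p = 0.4), nor did that of the fold (p = 0.2 by the same permutation test).

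**Figure D3:**
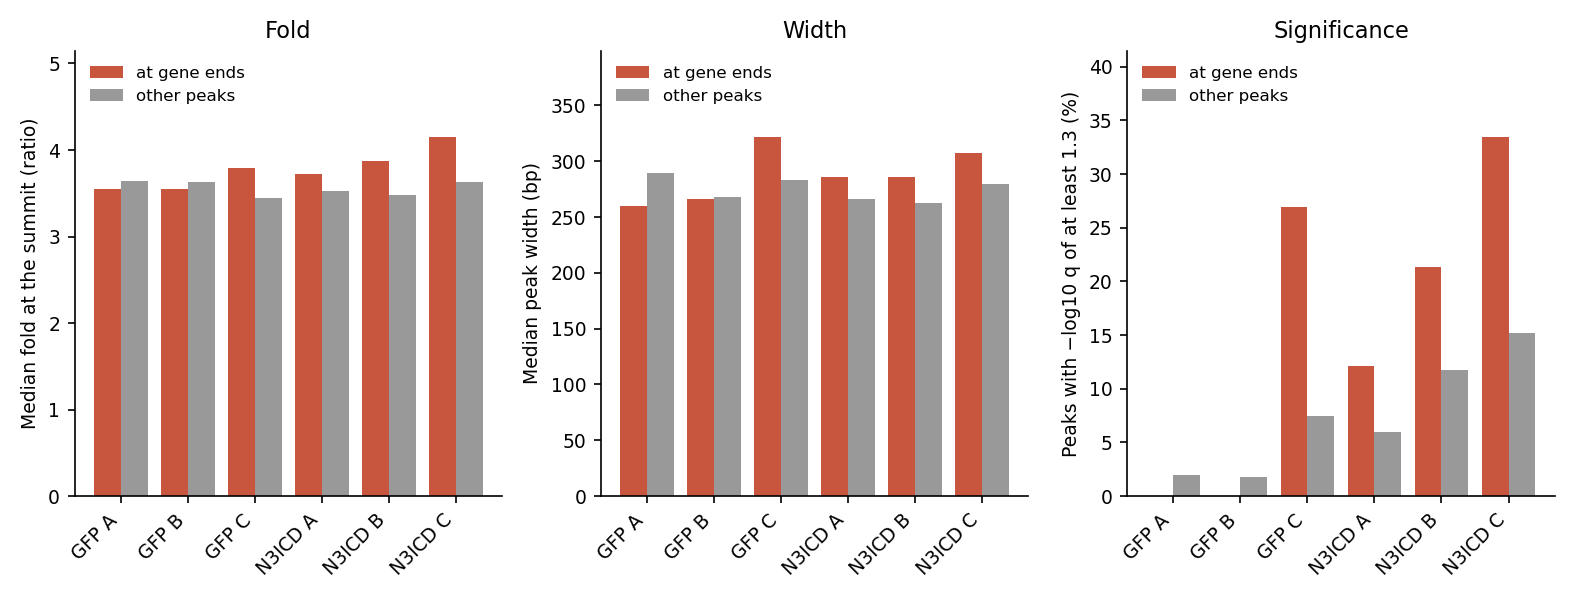
Median fold (left), median width in bp (middle) and percent of peaks with a −log10 q of at least 1.3 (right) for peaks at gene ends and other peaks of each library. In N3ICD A, B and C the bars at gene ends are higher in all 3 panels, for example 33.5% against 15.2% significant peaks in C, while GFP A and B show the reverse.

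Members were found again in a second N3ICD library more often than other peaks were. A member overlapped a peak of another N3ICD library by at least 1 bp in 45 of 231 cases in A, 96 of 622 in B and 107 of 884 in C, or 19.5%, 15.4% and 12.1%. For other peaks the shares were 2.66%, 3.59% and 2.71%. The mean difference was 12.7 ± 3.78 percentage points (SD, n = 3; exact sign-flip permutation p = 0.25, the smallest possible), with members ahead in 3 of 3 libraries. It was 9.08, 7.24 and 4.66 points without N3ICD A, B and C, when a peak has only 1 other library to be found in, and 4.43 points among peaks with a −log10 q of at least 1.3. A GFP peak overlapped 1, 3 and 0 members, or 0.433%, 0.482% and 0% of them. Even so, more than 4 in 5 members of each library had no partner.

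In each library, members with a high fold were found again in a larger share of cases. Members with a fold of at least 5 were found again in 33.3%, 26.8% and 23.3% of cases in A, B and C, and those under 5 in 18.3%, 14.3% and 10.1%. By pair, a peak of B overlapped 22 of the 231 members of A, or 9.52%, and a peak of C overlapped 32, or 13.9%. C overlapped 83 of the 622 members of B, or 13.3%, and B overlapped 83 of the 884 members of C, or 9.39%. Where members of 2 libraries overlapped, the median distance between their summits was 90 bp for A and B, 66 bp for A and C and 79 bp for B and C. Start-only members were found again in 19.7%, 15.8% and 12.3% of cases, and the few finish-only members in 2 of 17, 2 of 19 and 3 of 33. Other N3ICD peaks within 1 kb of an alternative or non-coding start were found again in 19.6%, 16.5% and 9.73% of cases, and the rest of the other peaks in 2.22%, 2.69% and 2.15%.

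**Figure D4:**
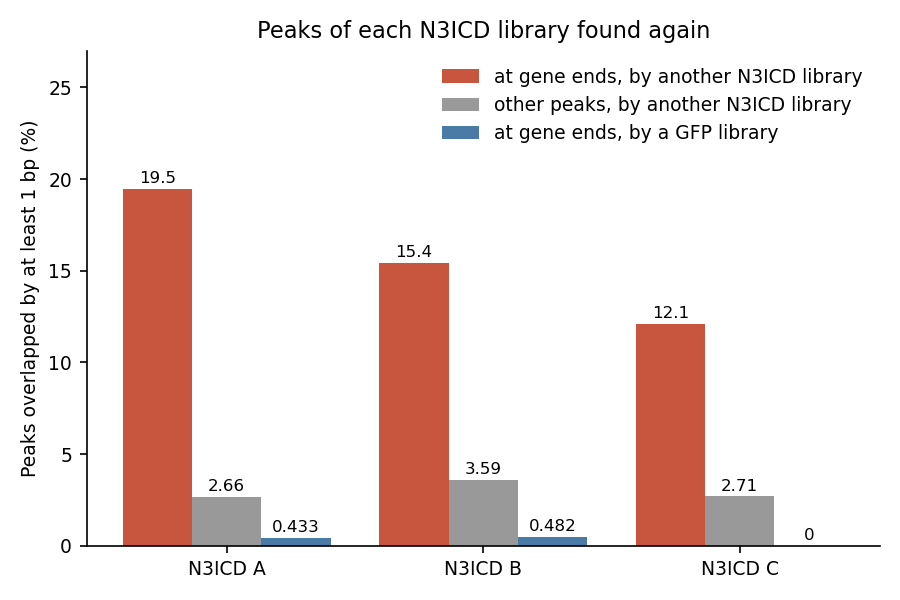
Percent of the peaks of each N3ICD library that overlap a peak of another N3ICD library, for peaks at gene ends and other peaks, and percent of gene-end peaks that overlap a GFP peak. Gene-end peaks stand at 19.5%, 15.4% and 12.1%, above 2.66%, 3.59% and 2.71% for other peaks.

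Counted by gene, 1832 of 19970 protein-coding genes, or 9.17%, had a member in at least 1 N3ICD library. In at least 2 libraries it was 201 genes or 1.01%, and in all 3 it was 12 genes or 0.0601%. In N3ICD A, B and C the gene counts were 273, 734 and 1038, or 1.37%, 3.68% and 5.2% of all genes. In GFP A, B and C they were 13, 18 and 29, or 0.0651%, 0.0901% and 0.145%. Across the GFP libraries 59 genes or 0.295% had a peak at an end in at least 1 library, 1 gene or 0.00501% in at least 2, and none in all 3. That gene was TAF7, a subunit of the general transcription factor TFIID. Of the 201 genes, 116 had members in B with C only, 49 in A with C only and 24 in A with B only. With 1 library left out a gene needed a member in both of the others, which 128, 61 and 36 genes had without A, B and C. In 148 of the 201 genes the peaks of at least 2 libraries also overlapped. Of the 59 genes with a GFP peak at an end, 11 also had an N3ICD member, beside the 9.17% of all genes that had one.

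The 12 genes with a member in all 3 N3ICD libraries stood at 9 places, since 3 of the places were shared by a pair of genes. MIDN, described above, had the highest mean rank of pileup. HEY2, a HES-related repressor and Notch target of vessels, had summits 134 and 99 bp upstream of its start in A and C and 8 bp downstream in B (chromosome 6, 125749343 to 125749830 in C). Pileup there was 6, 10 and 13 fragments and fold 3.09, 2.75 and 6.87 in A, B and C, so the library with the tallest HEY2 peak was C. All 3 HEY2 summits fell inside the 300 bases printed for it.

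Also among the 12, in no order of height, were FNIP1, RPS6KB1, LEPR and VTI1A with the genes that share their places. FNIP1, a folliculin partner in AMPK and mTOR signalling, had pileups of 8, 13 and 7 and folds of 3.97, 5.42 and 3.82 in the order A to C, 233 to 356 bp downstream of its start. RPS6KB1, the S6 kinase of the mTOR pathway, shares its promoter with TUBD1, a tubulin gene on the other strand whose start lies 178 bp away. The peaks there had pileups of 7, 11 and 6 and folds of 3.49, 4.47 and 3.64. LEPR, the leptin receptor gene, and LEPROT, whose product acts in endosomal sorting, start close together on the same strand. Their peaks had pileups of 7, 9 and 7 and folds of 3.53, 3.87 and 4.15. VTI1A, a SNARE gene of vesicle fusion, and ZDHHC6, an enzyme gene for protein palmitoylation, overlap head to head, with pileups of 11, 10 and 6 and folds of 5.29, 4.26 and 3.64 at the shared place. No library was the highest at all of these places.

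The remaining genes of the 12 encode regulators of transcription and RNA. FOXK2, a forkhead transcription factor gene, had pileups of 7, 12 and 9 and folds of 3.53, 5.02 and 5.19, 228 to 437 bp upstream of its start. HNRNPD, whose product binds AU-rich messenger RNAs, had pileups of 9, 10 and 9 and folds of 4.41, 2.75 and 4.78. CITED2, a partner of the coactivators CBP and p300, had pileups of 7, 9 and 10 and folds of 3.02, 3.08 and 5.37, and its peak in A did not overlap those of B and C. When peaks had to overlap, 11 genes remained in all 3 libraries. With a −log10 q of at least 1.3 required of each peak, 1 gene was left, MIDN.

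Gene groups were then read against the 9.17% and 1.01% of all genes. The Notch target list had 9 of 25 genes with a member, or 36%, and 4 in at least 2 libraries, or 16%. By library the list counted 3, 4 and 7 genes in the N3ICD libraries A, B, C, while every GFP library counted 0. The 4 were HEY2, HES4, HEY1 and ID2. Without N3ICD A, B or C, 3, 2 and 1 of the 25 genes had a member in both remaining libraries. The others, with a member in a single library, were BHLHE40, CCND1, HES1, HES7 and HEYL.

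HES4, a repressor gene, had members 43 and 91 bp upstream of its start in A and C (chromosome 1, 999973 to 1000501 in A), with pileups of 13 and 12 and folds of 5.30 and 4.61. Both HES4 summits lay inside the printed window. HEY1 on chromosome 8, where strand was not known, had members 844 and 151 bp from an end in B and C, with pileups of 11 and 12 and folds of 4.65 and 6.64, and these did not overlap. ID2, an inhibitor of basic helix-loop-helix factors, had weak members 65 and 62 bp downstream of its start in B and C (folds 3.87 and 3.64). HES1 had 1 member in A (fold 4.41, 354 bp inside the gene), HES7 1 in B (fold 4.26) and HEYL 1 in C (fold 5.19, 155 bp upstream). NOTCH3 itself had no member.

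Of the Notch pathway components 7 of 32, or 21.9%, had a member, and 1 had one in at least 2 libraries. It was MAML3, a Mastermind coactivator gene, with summits 96 and 152 bp upstream of its start in B and C (chromosome 4, 140154191 to 140154495 in C) and folds of 3.70 and 5.71. Others with a member were ADAM17, DLL4, NCOR1 and NOTCH2, which encode a protease, a ligand, a corepressor and a receptor. The immediate early and stress genes had 10 of 33, or 30.3%, and 3 in at least 2 libraries, FOS, EGR1 and IER2. FOS, a subunit of AP-1, had summits 266 and 264 bp upstream of its start in B and C, with pileups of 12 and 10 and folds of 5.03 and 5.64. EGR1, a zinc finger gene induced by growth factors, had members 687 and 760 bp upstream in A and C (folds 3.97 and 4.30), and the 2 of IER2 were at its finish end in B and C and did not overlap. Without A, B or C, 2, 1 and 0 of the 33 genes had a member in both remaining libraries. One other gene of this list, without a member, had a peak at an end in GFP C.

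Marker genes of cell types varied from list to list. Of the pericyte and mural markers 4 of 22 had one (HEYL, HIGD1B, NR2F2 and TBX2), with NR2F2, a nuclear receptor of veins and pericytes, in 2 libraries at its finish end (folds 3.39 in A and 4.26 in B). The 2 NR2F2 peaks did not overlap, with summits 460 bp before the finish in A and 680 bp past it in B. Among 19 contractile genes of smooth muscle 1 had a member, SRF, the transcription factor of that programme. The neural crest list had 5 of 20, or 25% (DLX1, FOXD3, MSX1, MSX2 and PAX3), none in 2 libraries. The Schwann cell and neuron list had 2 of 20 (SNAP25 and TUBB3). None of 15 endothelial or 14 pluripotency genes had a member. Of the extracellular matrix genes 7 of 32 had one, or 21.9%, and HSPG2, which encodes the basement membrane proteoglycan perlecan, had it in B and C (folds 3.99 and 4.15), 313 and 336 bp upstream of its start.

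Genes that most cells use were above the 9.17% of all genes in most families. Members were at 13 of 68 translation initiation and elongation factors (19.1%), 10 of 50 RNA polymerase II and general factor genes (20%), 8 of 36 cell cycle genes (22.2%), 13 of 77 mitochondrial ribosomal proteins (16.9%), 16 of 110 splicing factors and hnRNPs (14.5%), 12 of 86 respiratory chain genes (14%), 10 of 69 replication-dependent histones (14.5%), 7 of 53 DEAD and DEAH box helicases (13.2%) and 11 of 86 cytosolic ribosomal proteins (12.8%). The shares were lower for 3 of 48 proteasome genes (6.25%), 1 of 18 cytosolic tRNA synthetases (5.56%) and 3 of 33 Mediator genes (9.09%). Families read from their symbols and mostly silent outside their own tissues were nearly bare, with 2 of 392 olfactory receptors and 0 of 149 keratin genes. In the GFP libraries 4 olfactory receptors and 0 keratin genes had a peak at an end. Zinc finger genes named ZNF were close to all genes, with 52 of 509 (10.2%). Peaks of the GFP libraries were at 12 of the 509, out of 59 genes with a GFP peak in all. In at least 2 N3ICD libraries, 3 of the 509 had a member, or 0.589%, against 1.01% of all genes. These shares carry no test and were not matched for CpG content. Of all promoters with a ratio of observed to expected CpG over 0.6, 12.8% had a start-side member, near the shares of several of these families. Ribosomal protein and histone genes have near-identical copies that make some assignments uncertain.

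**Figure D5:**
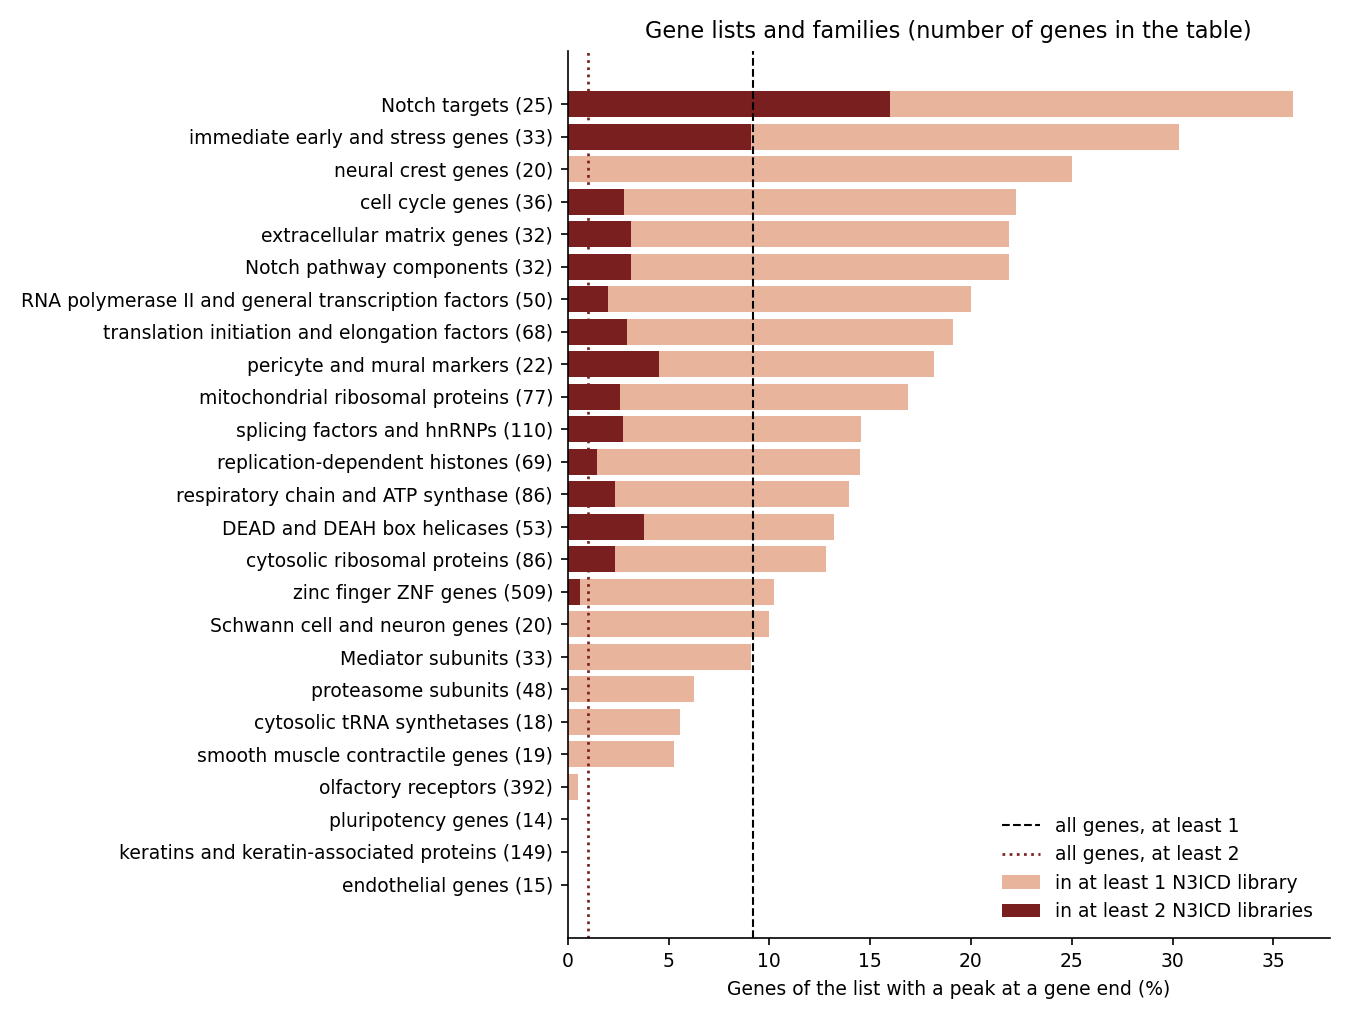
Percent of the genes of each list or family with a peak at a gene end in at least 1 N3ICD library (light bars) and at least 2 (dark bars), with the number of genes in brackets. The dashed and dotted lines mark 9.17% and 1.01% of all genes, and the Notch target list stands at 36% and 16%.

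The recurring members of these families sat mostly at starts and were of ordinary height. DDX1, an RNA helicase gene, had them 69 and 302 bp inside its start in A and B (folds 3.93 and 4.87), and DDX5, a helicase and coregulator, in B and C (folds 3.87 and 4.67). HNRNPK and HNRNPA2B1, which bind nuclear RNA, had folds of 4.26 and 3.64 and of 3.44 and 5.25 in B and C, and HNRNPA2B1 also had a peak in GFP C (fold 3.38). TAF6L, a subunit of the SAGA coactivator complex, stood higher, with pileups of 15 and 10 and folds of 6.74 and 5.48 in A and C, 300 and 325 bp inside its start. ZNF335, a zinc finger regulator, had pileups of 15 and 12 and folds of 4.93 and 6.75 in B and C. Of the same kind were EIF4A2 (folds 5.03 and 4.003 in B and C), MRPL16 (3.39 and 4.15), MRPL40 (3.76 and 3.15), NDUFS3 (3.48 and 3.82), MCM4 (3.87 and 4.67) and RPL7 (3.68 and 5.19), all in B and C, and NDUFS8 (3.53 and 4.14) in A and C. In H2AC17 the peaks of A and C were 80 bp inside the start and 532 bp past the finish, and in ZNF524 and HNRNPK the peaks of B and C did not overlap.

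Whether shared promoters, from which a gene runs off in each direction, were favoured could not be read from these counts. A start was counted as shared when another protein-coding start lay within 1 kb on the other strand, facing away, which held for 1605 of 15812 genes or 10.2%. Of members with a start within 1 kb, 15 of 187 in A, 46 of 504 in B and 71 of 706 in C were nearest to a shared start. The shares were 8.02%, 9.13% and 10.1%, a mean of 9.07% ± 1.02 (SD, n = 3), which was 1.08 percentage points under that of all starts (exact sign-flip permutation p = 0.25, the smallest possible). With the window narrowed to 500 bp the mean was 10.4%, just above that of all starts, so no direction can be given. The units also differ. Each member was counted once, at its nearest start, while both genes of a pair entered the share of all starts. The share of bases near shared starts was not computed. Partners of unknown strand were missed on both sides of this comparison. About 18% of members lay within 1 kb of the ends of more than 1 gene, 42, 115 and 163 in A, B and C.

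TUBD1 with RPS6KB1 was the one shared promoter found in all 3 libraries. Those next in rank, each in 2 libraries, began with PYURF and HERC3, a ubiquitin ligase gene, whose starts are 67 bp apart. Pileup there was 11 in B and 11 in C and fold 4.65 and 6.23. SLX1A, a nuclease subunit gene, and BOLA2B came next, but both belong to a duplicated segment, so their peaks are uncertain. HIRA, a histone chaperone gene, and MRPL40 start 812 bp apart, and the summits in B and C lay 76 and 29 bp before the start of MRPL40. CBX3, a heterochromatin protein gene, pairs with HNRNPA2B1, and the N3ICD summits were within 1 kb of the start of HNRNPA2B1 alone. CHD1L with PRKAB2, SHC1 with CKS1B and ZNF526 with DEDD2 completed the 8, with folds from 3.41 to 4.75.

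Promoters with members were rich in CpG. The RefSeq table held a promoter at the start end of 13792 genes. The median ratio of observed to expected CpG was 0.871 for 1149 promoters with a member in 1 N3ICD library, 0.875 for 137 with members in 2 or 3, and 0.751 for 12506 with none. Median GC was 66.7%, 68.7% and 62% in the same order. Of the 9153 promoters with a CpG ratio over 0.6, 12.8% had a start-side member, against 2.52% of the 4639 others. By library, 91.2%, 91.3% and 91.3% of the promoters with members in A, B and C were over 0.6, against 66.4% of all promoters and 76.2% of the 21 with a GFP peak.

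In the 300 bases read, the RBPJ core was no more common at promoters with recurring members than at all promoters. Within each CpG class, however, it was more common at promoters with a member than at those without. Most start-only summits lay downstream of the start, where few of these bases lie. Cores near many summits were therefore not read. TGGGAA, on either strand, was in 22.8% of all 13792 promoters, 24.98% of those with a member in 1 library and 18.98% of those with members in 2 or 3. By library it was in 20.4%, 20.9% and 26.8% for N3ICD A, B and C. The core was in 23.1% of CpG-rich promoters with a member and 19.9% of those without, and in 36.8% and 27.5% of the other promoters. HES1, HES4, HEY2 and HEYL each held it, at positions from −213 to −3 counted from the start as 0, and ZDHHC6 held 1 at −21. Of the other genes named above whose promoters were read, CITED2, FNIP1, FOXK2, HNRNPD, ID2, LEPR, LEPROT, MAML3, RPS6KB1 and TUBD1 held none in their 300 bases. At FNIP1, HNRNPD, ID2, LEPR, LEPROT, RPS6KB1, TUBD1 and ZDHHC6 no summit fell inside these bases, so the letters at those summits were not read. At CITED2 and FOXK2, 1 of 3 summits did.

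The other letters searched differed in direction. The SP box GGGCGG was in 58.5% of all promoters, 73.5% of those with a member in 1 library and 75.9% of those with members in 2 or 3. The ETS site CCGGAAG was in 14.6%, 21.7% and 18.2%, and CACGCG, a box bound by HES and HEY proteins, in 14.9%, 21.8% and 21.9%. The TATA box TATAAA was rarer in promoters with members, in 10.03%, 5.31% and 7.30%. CCAAT of NFY was in 37.1%, 35.7% and 29.9%, and the E-box CACGTG in 8.95%, 12.9% and 8.76%. The remaining shares were each under 6%: AP-1 TGACTCA 3.65%, 2.35% and 2.19%, CRE TGACGTCA 2.70%, 4.003% and 2.19%, E2F TTTCCCGC 2.18%, 4.18% and 1.46%, the palindromic NRF1 site 1.84%, 2.26% and 1.46%, and YY1 AAGATGGC 4.11%, 5.22% and 3.65%. Both strands were searched and no motif contained another. The part of base composition in these shares was not tested.

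Members were spread over the autosomes and scarce on chromosome X. Between 6.87% (chromosome 22) and 11.7% (chromosome 2) of the protein-coding genes of an autosome had a member, against 2.36%, or 20 of 848 genes, on X. N3ICD A, B and C had 7, 4 and 10 members among 152, 83 and 108 peaks on X. That is 4.61%, 4.82% and 9.26% of the X peaks, against 10.8%, 25.7% and 26.6% of autosomal peaks. All 3 libraries were lower on X than on the pooled autosomes. In N3ICD A, X did not stand apart from single autosomes. Chromosome 8 was lower there, with 4.21% of 95 peaks, and chromosome 9 was close, with 5% of 80. In B and C every autosome was above X, the lowest being chromosome 7 in B and chromosome 13 in C, each at 15.9%. At the other end, 25.7%, 35.3% and 44.5% of the peaks on gene-dense chromosome 19 were members.

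The rule has a threshold at 1 kb. The members just inside it were at CCDC97 in A (999 bp, pileup 24), NQO2 in A (998 bp, pileup 7) and ANO8 in B (996 bp, pileup 8). The peaks just outside it were at ZFP36 in B (1004 bp, pileup 10), MED28 in C (1006 bp, pileup 6) and FGFR2 in C (1011 bp, pileup 7).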

How the data were processed

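Notch3 antibody ChIP-seq peak lists of 6 libraries were used. Cells were crosslinked with 1% formaldehyde and their chromatin cut by enzyme, per the labels' protocols. Reads on hg38 went through MACS3 3.0.0a7, Bowtie2 2.2.1, deepTools 3.5.1, bedtools 2.30.0 and SAMtools 1.11, listed here in no order, per the submitters' processing notes. For the options and the control of each peak call, the sources used here give nothing. Each library has a peak list of its own from the authors. The deposited fold is the ratio of pileup to local background at the summit. Significance is the −log10 q deposited with each peak. The deposited signal is the summit pileup. Depth is known only through the background pileup, computed as the lowest repeated value of (pileup + 1) / fold − 1. Intervals cover counting error only.

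Positions are 1-based on hg38. Gene spans came from RefSeq on GRCh38.p14, and strand from its promoter table, which gave 15812 of 19970 genes. Libraries were compared by two-sided exact permutation tests (3 against 3, smallest p 0.1) and differences within libraries by exact sign-flip permutation (smallest p 0.25). The series text names independent differentiations of one line but ties no library to one, so p-values speak of these libraries only. Members and lists were chosen with earlier results of these data known. Named genes follow a rule: all genes with members in 3 libraries, up to 4 recurring genes per list, the 3 highest members per N3ICD library, the highest per GFP library, the 8 leading shared promoters, and NOTCH3 and the HES and HEY genes. Some genes that the rule names are not reported here. The fold threshold of 5, the 250 bp and CpG splits and the chromosome X comparison were chosen after the data were seen. Alternatives covered distance, significance, equal numbers of peaks, short genes, overlap rules, libraries left out, and a block for the replicate letter. Scripts were tested on simulated data. The software was SciPy 1.17.1, pandas 2.3.3 and numpy 2.4.6 under Python 3.11.15, with figures from matplotlib 3.10.9.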

Additional observations from a re-analysis of the deposited data

How the results depend on the processing

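Across 81 alternative values, 1 changed direction. The share of start-end members at shared promoters was 10.4% with summits within 500 bp, above that of all starts, where it was 9.07% and below it otherwise. The number of genes with members in at least 2 N3ICD libraries moved from 201 to 118 with summits within 500 bp and to 26 with a minimum −log10 q of 1.3. The number in all 3 libraries moved from 12 to 19 with summits within 2 kb and to 1 at that −log10 q. With 1 N3ICD library left out, genes with members in both remaining libraries numbered 36 to 128, which take the place of both counts. Stricter settings admit fewer peaks by construction. The start share stayed between 90.8% and 96.5%. The difference in agreement ranged from 4.43 to 12.7 percentage points, lowest with that minimum. The difference in gene-end peaks between groups was 150 at that setting, 310 with equal numbers of peaks, and 408 to 734 with 1 library left out. The median pileup over background did not differ at all (0) without N3ICD C. The replicate letter as a block left the group difference at 560 peaks (exact sign-flip permutation p = 0.25, the smallest possible). The letters gave no sign of pairing, as correlations of peak density in 1 Mb bins between libraries of the same letter were −0.0314, 0.0270 and −0.0575. These p-values cannot pass the usual threshold and say nothing of stability.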
